A study of Caenorhabditis elegans with 53 samples.

Results

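The early timing genes lin-28, hbl-1 and lin-46 of Caenorhabditis elegans were followed through postembryonic life in RNA from neuronal nuclei and from all nuclei of the same animals. The members were chosen by gene name, and all 3 were found among the 41897 genes of the raw count table. That table holds 38 libraries of the control strain, 22 from neuronal nuclei captured by immunoprecipitation (neuronal IP) and 16 from the unselected nuclei (input). Neuronal IP has 4 libraries of L1, 5 of L2, 6 of L4 and 7 of adult animals, and input has 4, 3, 4 and 5 libraries of the same stages. Collection took place 8 ± 1 h after plating on food for L1, 21 ± 1 h for L2, 40 ± 2 h for L4 and 53 ± 2 h for adults. Every animal, input included, carried otIs790, labelled UPN INTACT, a transgene that tags the nuclei of neurons for capture. Each library pooled a large synchronised population, so it reports an average over animals and over all neuron types, and nothing in the labels says that replicates came from separate cultures. The p-values below therefore measure the spread between libraries, which may be technical in part. In such bulk samples, fewer cells of a type and less RNA per cell cannot be told apart. The 15 neuronal IP libraries of mutants (a lin-4 null allele, and gain-of-function alleles of lin-28 and lin-14) were not analysed here, since 0 of the 3 genes were found among the 7974 genes of the size-adjusted table that holds them.

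The heterochronic pathway orders stage-specific cell fates in the larva, and it is best known from the seam cells of the hypodermis. LIN-28 is a conserved RNA-binding protein that maintains early larval fates and blocks maturation of the let-7 microRNA. HBL-1 is a hunchback-like zinc finger transcription factor that specifies early fates and is repressed by let-7 family microRNAs through its 3′ UTR. LIN-46 is a gephyrin-related protein that opposes HBL-1 activity and is held back by LIN-28. In neurons, hbl-1 is known from the timing of synaptic remodelling in motor neurons, and lin-28 from the timing of sexual maturation of the nervous system.

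In the coordinates of the count table, whose build is not given in the sources used here, lin-28 (WBGene00003014) lies on chromosome I from 8408155 to 8410797 on the minus strand. The gene hbl-1 (WBGene00001824) lies on chromosome X from 5823033 to 5826326, and lin-46 (WBGene00003031) on chromosome V from 12968875 to 12970561, both on the plus strand. Reads were counted over 732 bases in 4 segments of lin-28, 2947 bases in 8 segments of hbl-1 and 1176 bases in 5 segments of lin-46. All 4 segments of lin-28, all 5 of lin-46 and 7 of the 8 of hbl-1 have the length of a coding segment in the WBcel235 annotation. The remaining segment of hbl-1 matched no coding segment by length, and lengths alone do not show which bases were counted. No counted segment of the 3 genes overlapped a segment of another gene in the table.

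Total counts ranged from 8582120 to 53251753 per library. Levels are given as CPM, the standard unit of a gene's reads relative to library size, after scaling by trimmed mean of M values (TMM), and tests are edgeR's quasi-likelihood test with Benjamini-Hochberg adjustment over 21040 genes, called at an adjusted p under 0.05. Of 18 pan-neuronal markers, 17 were called higher in neuronal IP when the 4 stages were averaged, so the capture is visible in the counts. Neuronal IP was not free of RNA from other tissues. The summed CPM of 18 germline and oocyte markers in neuronal IP reached medians of 207, 276, 1131 and 5927 at L1, L2, L4 and adult. Input medians were 314, 408, 3590 and 10070, and 17 of the 18 were called lower in neuronal IP over the 4 stages. The 16 measured seam and hypodermis markers, the tissue where the 3 genes are best known, summed to medians of 247, 612, 2585 and 252 in neuronal IP. Their input medians were 473.5, 1032, 2965 and 384.8. Intestine markers reached a median of 43350 in adult neuronal IP, against 103800 in adult input.

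The 3 genes had different stage profiles. lin-28 was highest at L1, lowest at L4 and higher again in adults, in both fractions. hbl-1 and lin-46 had their highest neuronal mean at L2 and were lower at L4, and lin-46 was by far the least abundant. In input hbl-1 had no such peak, with means of 101.6, 100.3, 35.25 and 92.36 CPM at L1, L2, L4 and adult. Scaled per kilobase of counted sequence, neuronal IP at L1 held 91.0 ± 19.7 CPM per kb of lin-28, 32.0 ± 6.86 of hbl-1 and 2.13 ± 0.798 of lin-46 (SD, n = 4). At L2 the order of the leading pair was the other way round, with 30.4 ± 5.82 CPM per kb of lin-28, 51.1 ± 8.98 of hbl-1 and 3.87 ± 0.942 of lin-46 (SD, n = 5). By this measure lin-28 stood above 92.4% of the tested genes in neuronal IP at L1 and above 65.1% at L4, while lin-46 stood above 29.7% and 14.6%.

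**Figure D1:**
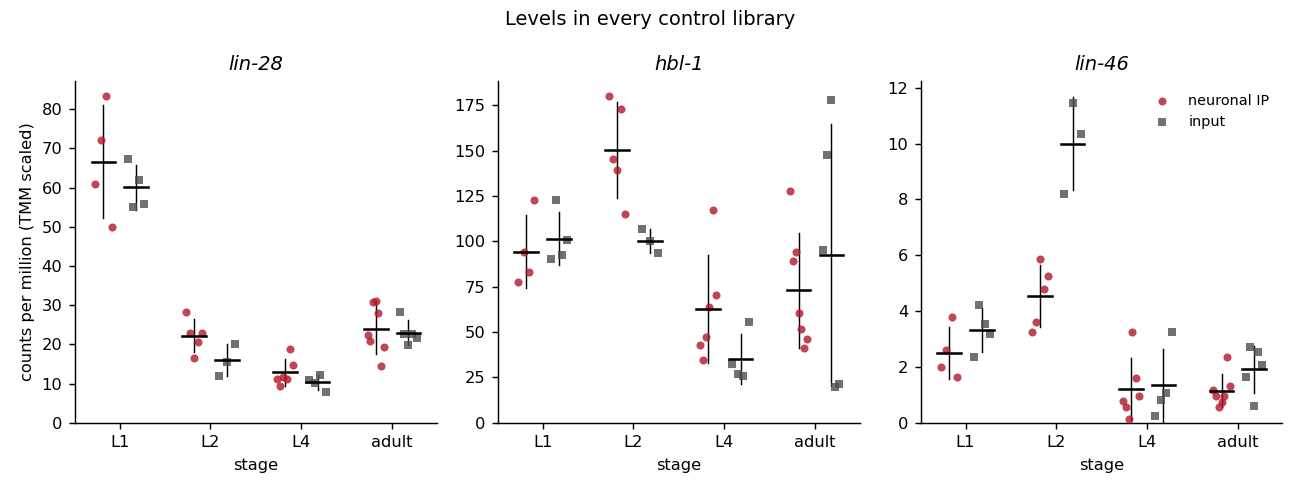
Level of each gene in every control library, as TMM-scaled CPM, at 4 stages. Red circles are neuronal IP libraries, grey squares input libraries, horizontal bars group means and vertical bars 1 SD; lin-28 falls after L1 in both fractions, and the adult input libraries of hbl-1 split into a high and a low set.

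The RNA-binding factor lin-28 was lower at L2 than at L1 in both fractions. Neuronal IP libraries held 28.3, 22.8, 16.5, 20.7 and 22.9 CPM at L2, against 60.9, 72.1, 83.4 and 50.0 CPM at L1. Input libraries held 12.1, 15.5 and 20.2 CPM at L2, against 67.4, 55.1, 61.9 and 56.0 CPM at L1. In neither fraction did any L2 library reach the lowest L1 library. The fall was 3.00-fold in neuronal IP (log2 fold change -1.58 ± 0.22 SE, edgeR adjusted p = 2.75e-05) and 3.77-fold in input (log2 fold change -1.92 ± 0.27 SE, edgeR adjusted p = 3.24e-05). Of the 3 members, lin-28 alone was called in this step, where 0.566% of tested genes were called lower in neuronal IP and 0.323% in input. Ranked by p among the genes that were lower, lin-28 was number 2 in each fraction.

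The decline of lin-28 went on to L4. Its neuronal IP libraries held between 9.28 and 18.9 CPM at L4 with a median of 11.4, and input libraries held 11.02, 10.2, 12.3 and 7.73 CPM. Against L2 the log2 fold change was -0.79 ± 0.20 SE in neuronal IP (edgeR adjusted p = 0.0026) and -0.63 ± 0.25 SE in input (edgeR adjusted p = 0.0397), with some overlap of the libraries in both fractions. With scaling factors taken from the 8621 genes called higher in neuronal IP than in input (neuron-enriched genes) neither fraction was called, at -0.38 in neuronal IP (edgeR adjusted p = 0.165) and -0.20 in input (edgeR adjusted p = 0.542). That scaling put the median of all genes at 0.27 in neuronal IP, against -0.13 with TMM, and relative to the median of all genes the lin-28 value was -0.66 under both scalings in neuronal IP, and -0.42 against -0.47 with TMM in input. The input call also rested on L4 replicate 4, without which the value was -0.51 (edgeR adjusted p = 0.111), and it was -1.001 without L2 input replicate 1 (edgeR adjusted p = 0.00171).

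In adults lin-28 was higher than at L4 in both fractions. Adult neuronal IP libraries lay between 14.6 and 30.98 CPM with a median of 22.3, and the 5 adult input libraries held 28.2, 22.6, 19.7, 22.7 and 21.7 CPM. All adult input libraries were above all L4 input libraries, while the neuronal IP libraries of the 2 stages overlapped. The rise was 1.85-fold in neuronal IP (log2 fold change 0.89 ± 0.19 SE, edgeR adjusted p = 0.000233) and 2.23-fold in input (log2 fold change 1.16 ± 0.23 SE, edgeR adjusted p = 0.000102), where 18.6% and 21.3% of tested genes were called higher. Germline and oocyte markers were higher in the same step, 17 of 18 of them in neuronal IP, where their median log2 fold change was 1.95; their part in the lin-28 values was not tested. Adult levels were still below L1, with log2 fold changes of -1.48 ± 0.20 SE in neuronal IP (edgeR adjusted p = 1.66e-07) and -1.39 ± 0.22 SE in input (edgeR adjusted p = 1.72e-06), among 29.4% and 31.8% of tested genes called lower. Under scaling on neuron-enriched genes the adult difference from L1 was -0.49 in neuronal IP (edgeR adjusted p = 0.04) and -0.28 in input (edgeR adjusted p = 0.279, not called). Relative to the median of all genes these values were -1.30 in neuronal IP and -1.045 in input, against -1.27 and -1.07 with TMM. In neuronal IP the adult and L2 libraries covered nearly the same range.

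The transcription factor hbl-1 did not show the early fall of lin-28. Its neuronal IP libraries held 180.4, 145, 139, 173 and 115 CPM at L2, against 77.7, 94.1, 82.97 and 123 CPM at L1. A single L1 library lay above the lowest L2 library, and the log2 fold change of 0.67 ± 0.43 SE was not called (edgeR adjusted p = 0.412). Fitted on these 2 groups alone, with 16770 genes tested, the difference was 0.78 and was called (edgeR adjusted p = 0.023). Input gave no such difference, with 107, 100.2 and 93.8 CPM at L2 against 90.1, 123, 92.8 and 101 CPM at L1 and a log2 fold change of -0.02 (95% interval -1.01 to 0.97).

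From L2 to L4 hbl-1 fell in both fractions. At L4 the neuronal IP libraries lay between 34.8 and 117 CPM with a median of 55.6, and 1 of the 6 exceeded the lowest L2 library. Input at L4 held 32.6, 27.1, 25.7 and 55.7 CPM, all below L2. The fall was 2.40-fold in neuronal IP (log2 fold change -1.26 ± 0.39 SE, edgeR adjusted p = 0.0136) and 2.84-fold in input (log2 fold change -1.51 ± 0.49 SE, edgeR adjusted p = 0.012). All 3 members were called lower at this step in each fraction, against 9.04% of tested genes in neuronal IP and 20.7% in input.

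hbl-1 varied widely among adult libraries. Neuronal IP averaged 72.96 ± 31.8 CPM in adults (SD, n = 7) and 62.7 ± 29.8 CPM at L4 (SD, n = 6), a log2 fold change of 0.22 (95% interval -0.51 to 0.94). Input averaged 92.4 ± 72.2 CPM in adults (SD, n = 5) and 35.3 ± 13.95 CPM at L4 (SD, n = 4), a log2 fold change of 1.39 ± 0.44 SE that was called (edgeR adjusted p = 0.0121). Without adult input replicate 3 that value was 1.01 and not called (edgeR adjusted p = 0.0677). The 5 adult input libraries spanned a 9.15-fold range, and the sets of libraries described below turn this input difference round. Against L1, adult hbl-1 was not called in either fraction over all libraries, with log2 fold changes of -0.37 (95% interval -1.18 to 0.43) in neuronal IP and -0.14 (95% interval -1.004 to 0.73) in input.

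The gephyrin-related gene lin-46 was scarce at every stage. At L2 its neuronal IP libraries held 3.24, 3.59, 5.87, 4.81 and 5.25 CPM, from 56 to 170 reads each, against 2.01, 2.61, 3.78 and 1.63 CPM at L1. Input libraries held 8.19, 11.5 and 10.3 CPM at L2, against 2.35, 4.23, 3.55 and 3.18 CPM at L1. The input groups did not overlap while the neuronal IP groups did. The log2 fold change was 0.86 ± 0.57 SE in neuronal IP (edgeR adjusted p = 0.430) and 1.58 ± 0.63 SE in input (edgeR adjusted p = 0.216), neither of them called. Fitted on the 2 input groups alone, the input difference was 1.73 (edgeR adjusted p = 0.00597).

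At L4 lin-46 was lower than at L2. Neuronal IP libraries at L4 ranged from 0.119 to 3.24 CPM with a median of 0.877, and input libraries held 0.236, 0.820, 1.07 and 3.25 CPM. In both fractions the highest L4 library stayed below or level with the lowest L2 library. The fall was 3.67-fold in neuronal IP (log2 fold change -1.88 ± 0.52 SE, edgeR adjusted p = 0.00564) and 7.28-fold in input (log2 fold change -2.86 ± 0.66 SE, edgeR adjusted p = 0.000691). Without replicate 4, the highest L4 library of its fraction, the values were -2.57 in neuronal IP and -3.83 in input. The neuronal IP call was lost under scaling on neuron-enriched genes, at -1.46 (edgeR adjusted p = 0.058), while the value relative to the median of all genes was -1.74 there and -1.75 with TMM. The lowest library rested on 3 reads, whose exact Poisson 95% interval corresponds to 0.0246 to 0.348 CPM and covers counting error only.

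Adult lin-46 was not called different from L4 over all libraries, and its direction depended on the L4 libraries used. Neuronal IP libraries lay between 0.581 and 2.34 CPM with a median of 0.978, and input libraries held 1.65, 2.72, 0.614, 2.55 and 2.06 CPM. Against L4 the log2 fold change was -0.08 (95% interval -1.04 to 0.89) in neuronal IP and 0.48 (95% interval -0.70 to 1.66) in input. With L4 replicates 1 to 3 alone the values were 1.16 in neuronal IP (edgeR adjusted p = 0.117) and 1.55 in input (edgeR adjusted p = 0.025), and with the later L4 libraries alone -0.73 (edgeR adjusted p = 0.209) and -0.75 (edgeR adjusted p = 0.482, with 1 L4 input library). Against L1 it was -1.10 ± 0.52 SE in neuronal IP (edgeR adjusted p = 0.0736) and -0.80 ± 0.56 SE in input (edgeR adjusted p = 0.219). The neuronal IP value passed the threshold with DESeq2, at -1.30 (adjusted p = 0.0219), with RLE scaling, at -1.30 (edgeR adjusted p = 0.0329), and without adult replicate 6, at -1.34 (edgeR adjusted p = 0.0405). Under scaling on neuron-enriched genes it was 0.018 (edgeR adjusted p = 0.982), which is -0.80 relative to the median of all genes, beside -0.89 with TMM.

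**Figure D2:**
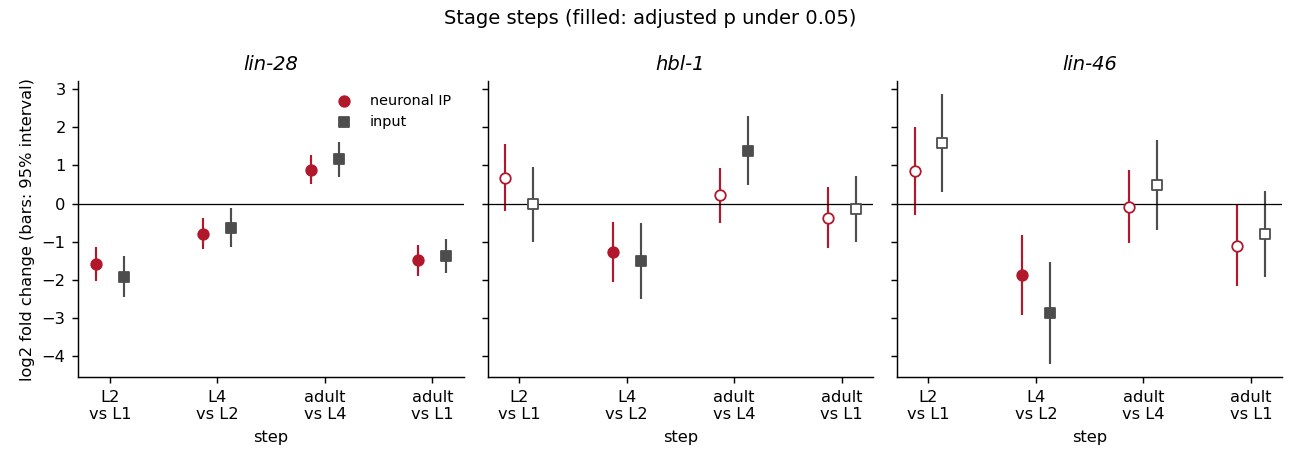
Log2 fold change of each gene at 3 successive stage steps and for adult against L1, in neuronal IP (red circles) and input (grey squares), with 95% intervals; filled symbols are called at an edgeR adjusted p under 0.05. All 3 genes are called lower at L4 than at L2 in both fractions, and lin-28 alone is called at L2 against L1.

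No stage step of the 3 genes was shown to differ between neuronal IP and input. The interaction contrasts called 0 of the 3 members in any of the 4 steps with edgeR, and 0 with DESeq2, where 0.00475% (L2 against L1), 5.08% (L4 against L2), 1.12% (adult against L4) and 16.1% (adult against L1) of tested genes were called with edgeR. At an unadjusted p under 0.05, 1 of the 12 values passed, the adult step of hbl-1 against L4, with a difference of -1.17 (95% interval -2.31 to -0.03, unadjusted p = 0.0444 and edgeR adjusted p = 0.332). For lin-28 the difference in the L2 step was 0.33 (95% interval -0.34 to 1.01). For lin-46 the difference in the L4 step was 0.99 (95% interval -0.68 to 2.65). Fitted on the compared groups alone, the adult against L1 step of lin-28 was called different, at 0.73 (edgeR adjusted p = 0.0357), against -0.10 in the fit over all groups. The median of all genes was 1.02 in that smaller fit, and 6866 of 19254 genes were called higher. The lin-28 value thus lay below that median, and nothing particular to lin-28 is read from the call. The 95% intervals above are wide, and a miss of the threshold does not show that the fractions moved alike.

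Replicate numbers divided the L4 and adult libraries of hbl-1 into sets. Adult input replicates 1 to 3 held 95.03, 148 and 178 CPM of hbl-1, while replicates 4 and 5 held 19.5 and 21.2 CPM. Adult neuronal IP replicates 1 to 3 held 128, 89.1 and 94.2 CPM, while replicates 4 to 7 held 60.6, 51.9, 41.1 and 46.1 CPM. The sets did not overlap in either fraction, and replicates 1 to 3 were 6.91-fold higher in input and 2.08-fold higher in neuronal IP. No label marks a batch at this cut, which lies where the adult hbl-1 values part, so the lack of overlap is no test. lin-28 held nearly the same level in both adult sets, with ratios of 1.06 in each fraction.

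What was found for adult hbl-1 depended on the set. The sets part along hbl-1 itself, so p-values within a set leave out the spread between sets and describe that set only. With replicates 1 to 3 alone it was lower in neuronal IP than in input by a log2 value of -1.01 (edgeR adjusted p = 0.00761). The median of all genes was -0.63 in that fit, and 5975 of 20764 genes were called lower, so part of this value is shared. With replicates 4 to 7 alone hbl-1 was higher, at 1.04 (edgeR adjusted p = 0.0178). The median of all genes was 0.005 there, and 3689 of 21515 genes were called higher. With the later set alone, adult input was below L4 input (-0.87, edgeR adjusted p = 0.0448) and below L1 input (-2.41, edgeR adjusted p = 1.59e-06), and adult neuronal IP was below L1 neuronal IP (-0.83, edgeR adjusted p = 0.00732). That set has 2 adult input libraries. The same set gave an adult against L1 step that was called different between the fractions (1.58, edgeR adjusted p = 0.0153), and replicates 1 to 3 alone gave such a difference for adult against L4 (-1.63, edgeR adjusted p = 0.015). For the latter the median of all genes was -0.47, with 675 of 20764 genes called lower.

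At L4 the order of the sets was the other way round. Neuronal IP replicates 1 to 3 held 42.8, 34.8 and 47.4 CPM of hbl-1, and replicates 4 to 6 held 63.8, 117 and 70.2 CPM. The single later input library held 55.7 CPM, against 25.7 to 32.6 CPM in the earlier 3. With L4 replicates 4 to 6 alone, the step from L2 to L4 was called in neuronal IP for none of the 3 genes, with log2 fold changes of -0.58 for lin-28, -0.86 for hbl-1 and -1.23 for lin-46. Fewer genes were called in that smaller fit, 11.5% of those tested against 25.4% over all libraries. Input then has 1 library at L4, so its misses say little, and the lin-28 value there was -1.08, against -0.63 over all libraries. Marker lists moved with the sets. L4 replicates 1 to 3 had more germline and oocyte RNA (2.77-fold in neuronal IP, 2.97-fold in input) and more seam and hypodermis RNA (2.35-fold and 1.48-fold), and adult replicates 1 to 3 had more germline and oocyte RNA (1.399-fold and 1.87-fold) and more pan-neuronal RNA (1.78-fold and 1.59-fold). The later adult libraries had more pharyngeal muscle RNA (3.94-fold in neuronal IP, 1.92-fold in input), more sperm RNA (1.22-fold and 4.10-fold) and, in neuronal IP, more glia RNA (1.88-fold) and body wall muscle RNA (1.85-fold). The part of these markers in the hbl-1 values was not tested.

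In 3 of the 4 L4 and adult groups the library with the most lin-46 also had the most pharyngeal muscle RNA. At L4, replicate 4 held 3.24 CPM of lin-46 in neuronal IP and 3.25 CPM in input, each the highest of its group. The 6 pharyngeal muscle markers summed to 1242 CPM in that neuronal IP library, against 219 to 397 CPM in the other 5, and to 977 CPM in that input library, against 229 to 368 CPM in the other 3. Adult neuronal IP replicate 6, with 2.34 CPM of lin-46, had a pharyngeal sum of 1575 CPM, against 67.6 to 755 CPM in the other 6. Adult input differed: replicate 2 had the most lin-46, at 2.72 CPM, and a pharyngeal sum of 339 CPM, below the 427.2 and 493.2 CPM of replicates 4 and 5. At L1 and L2 the match held in L1 neuronal IP only. In L2 neuronal IP, replicate 3 had the most lin-46 (5.87 CPM). Its pharyngeal sum was 3194 CPM, against 9651 CPM in replicate 2. In L1 input lin-46 was highest in replicate 2 and the pharyngeal sum in replicate 3. In L2 input they were highest in replicates 2 and 4. All 6 of these markers were called lower at L4 than at L2 in neuronal IP (median log2 fold change -3.23), the step in which lin-46 fell too. The other marker lists are not set beside lin-46 in this way here, and the part of pharyngeal RNA in the lin-46 values was not tested.

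**Figure D3:**
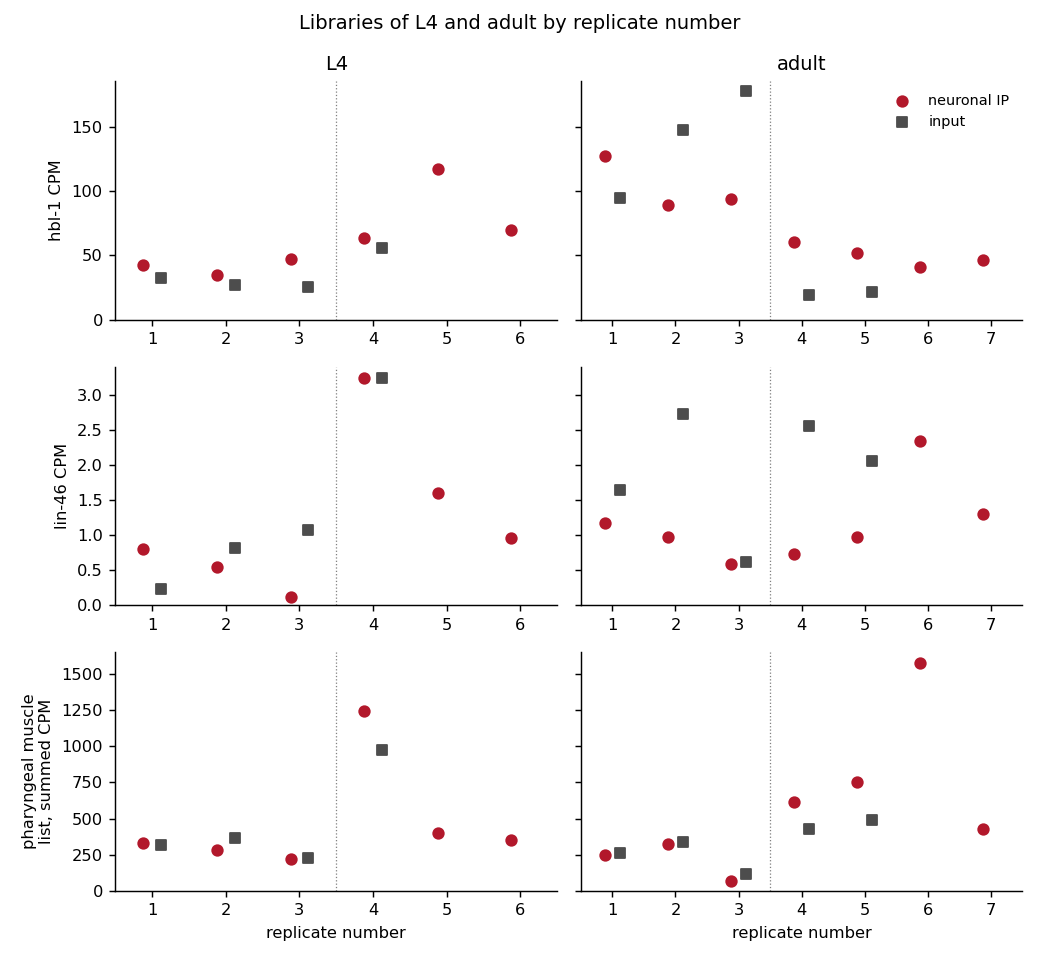
Level of hbl-1, level of lin-46 and summed CPM of 6 pharyngeal muscle markers in each L4 and adult library, by replicate number (a name, not an order), with neuronal IP as red circles and input as grey squares. The dotted line parts replicates 1 to 3 from the later ones; hbl-1 is higher left of it in adults and right of it at L4, and the lin-46 peaks at L4 replicate 4 and adult neuronal IP replicate 6 coincide with peaks of the marker list.

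In the fit over all groups with TMM, none of the 3 genes was called different between neuronal IP and input at any single stage, and 0 of the 12 values had an unadjusted p under 0.05. Of tested genes, 51.5% (L1), 42.2% (L2), 41.6% (L4) and 37.7% (adult) were called. lin-46 at L2, at -1.13 (edgeR adjusted p = 0.118), was called lower with DESeq2, RLE scaling, no filter, the compared groups alone and the replicate block. The values lay between -1.74 and -1.37, with adjusted p from edgeR or DESeq2 between 0.00399 and 0.0464. Those settings called between 3904 and 4866 genes lower, of 17312 to 34282 tested. Scaling on neuron-enriched genes gave -2.75, but 10624 of 21040 genes were called lower there, so nothing is read from that call. Without 1 library at a time lin-46 at L2 lay between -1.74 and -1.06 (edgeR adjusted p between 0.0307 and 0.183). Relative to the median of all genes it was -1.59 with TMM and between -1.85 and -1.45 under the alternatives. Fold changes between the fractions depend on the scaling. The median log2 fold change of all tested genes over the 4 stages was 0.25, and among the alternatives it lay between -1.43 and 0.57, so values are also given relative to it. Over the 4 stages lin-28 was at 0.25 ± 0.11 SE (edgeR adjusted p = 0.0462, where 41% of tested genes were called higher), which is -0.003 relative to the median of all genes. Without 1 library at a time the lin-28 value lay between -0.19 and 0.27, and the median of all genes moved with it, between -0.16 and 0.32. hbl-1 was at 0.24 ± 0.21 SE (edgeR adjusted p = 0.330), or -0.01 relative to the median. lin-46 was at -0.60 ± 0.28 SE (edgeR adjusted p = 0.061), or -0.85 relative to the median, and under 10 alternatives that relative value lay between -1.30 and -0.84.

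Same-numbered libraries of the 2 fractions were treated as pairs, from their numbers and correlations. Some calls changed when the pair was a block in the fit. lin-46 was then lower in neuronal IP at L2 (-1.37, edgeR adjusted p = 0.0123), in adults (-1.01, edgeR adjusted p = 0.036) and over the 4 stages (-0.81, edgeR adjusted p = 0.00213). Its neuronal IP library was below its paired input library in 3 of 3 pairs at L2 and 5 of 5 pairs in adults. The blocked fit also called lin-28 higher at L2 (0.61, edgeR adjusted p = 0.0275), with 3 of 3 pairs higher, and hbl-1 higher over the stages (0.35, edgeR adjusted p = 0.0481). Relative to the median of all genes in the same fit these blocked values were -1.85, -1.003 and -1.03 for lin-46, 0.13 for lin-28 and 0.13 for hbl-1. That fit called 4543, 4544 and 6033 of 21040 genes lower in neuronal IP at L2, in adults and over the 4 stages. It called 7981 genes higher at L2 and 8970 over the stages.

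Set among all tested genes by the log2 fold change of neuronal IP over input across the 4 stages, lin-28 stood at percentile 49.9 and hbl-1 at 49.7, both near the middle, and lin-46 at 19.6. The 8621 genes called higher in neuronal IP, lin-28 among them, had a median of 2.27; they were selected on this contrast, so a gene in the middle lies below that median by construction. Scaling on those genes moved the median of all genes to -1.43, and 13243 of 21040 genes were then called lower in neuronal IP. The 3 members were called lower under it as well, as were 11348, 10624, 11006 and 12798 genes at L1, L2, L4 and adult, so nothing is read from these calls. Relative to the median of all genes the over-stage values under that scaling were -0.08 for lin-28, -0.08 for hbl-1 and -0.84 for lin-46.

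**Figure D4:**
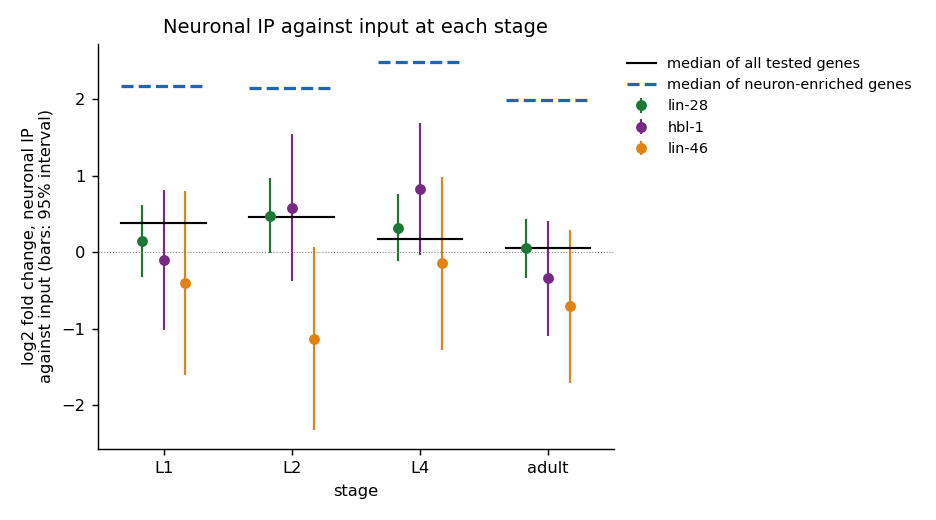
Log2 fold change of neuronal IP against input for the 3 genes at each stage, with 95% intervals; black lines mark the median of all tested genes and dashed blue lines the median of the 8621 neuron-enriched genes. lin-46 lies below the black line at all 4 stages, and hbl-1 at L4 lies 0.66 above it; the dashed lines are high by the choice of their genes.

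Other genes of the heterochronic pathway were set beside the members from a list of 25 genes, of which 24 passed the filter on low counts (mir-84 did not) and 21 were not members. At L2 against L1 in neuronal IP, 8 of these 21 were called higher, where 2.44% of tested genes were, the direction opposite to lin-28. The loci of let-7 family microRNAs were among them, with log2 fold changes of 3.68 ± 0.93 SE for let-7 (edgeR adjusted p = 0.0217), 5.98 ± 1.30 for mir-48 (edgeR adjusted p = 0.007) and 4.55 ± 0.82 for mir-241 (edgeR adjusted p = 0.00121). At L1 these loci averaged only 0.44, 0.015 and 0.19 CPM in neuronal IP, so the sizes of these fold changes are uncertain. At L2 they held 6.06 ± 6.47, 1.42 ± 1.27 and 4.84 ± 4.83 CPM (SD, n = 5), a spread near the mean. Mature microRNAs were not measured separately. lin-42, a period-like regulator of the larval moulting cycle, rose by 3.30 ± 0.51, lin-29, a zinc finger factor of the larva-to-adult switch, by 1.51 ± 0.33, and daf-12, a nuclear hormone receptor, by 0.92 ± 0.27. lin-14, the early transcription factor repressed by lin-4, was at -0.07 ± 0.24 (edgeR adjusted p = 0.898), and lin-4 was at -0.66 ± 0.70 (edgeR adjusted p = 0.637).

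At L4 against L2 in neuronal IP, 5 of the 21 were called lower and 3 higher, beside 9.04% and 16.3% of tested genes. lin-14 fell by 0.91 on the log2 scale (edgeR adjusted p = 0.00121) and lin-41, a target of let-7, fell by 2.67 (edgeR adjusted p = 1.82e-08), as did the 3 members. In adults against L4, 10 were called lower and 4 higher, beside 14.1% and 18.6% of tested genes. lin-41 was higher in adults, as lin-28 was, by 2.67 ± 0.27 SE (edgeR adjusted p = 1.82e-09), while let-7 was at -6.26 ± 0.80 (edgeR adjusted p = 1.31e-07). In input lin-41 rose by 2.81 (edgeR adjusted p = 3.36e-08). Adult lin-41 was lower in neuronal IP than in input (-0.82, edgeR adjusted p = 0.0114), and the part of other tissues in its rise was not tested. The let-7 locus averaged 21.5 ± 16.8 CPM at L4 (SD, n = 6) and 0.28 ± 0.15 CPM in adults (SD, n = 7). The median of the 21 genes was 0.20 at the first step, -0.08 at the second and -0.55 at the third, beside -0.13, -0.13 and -0.21 for all tested genes.

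**Figure D5:**
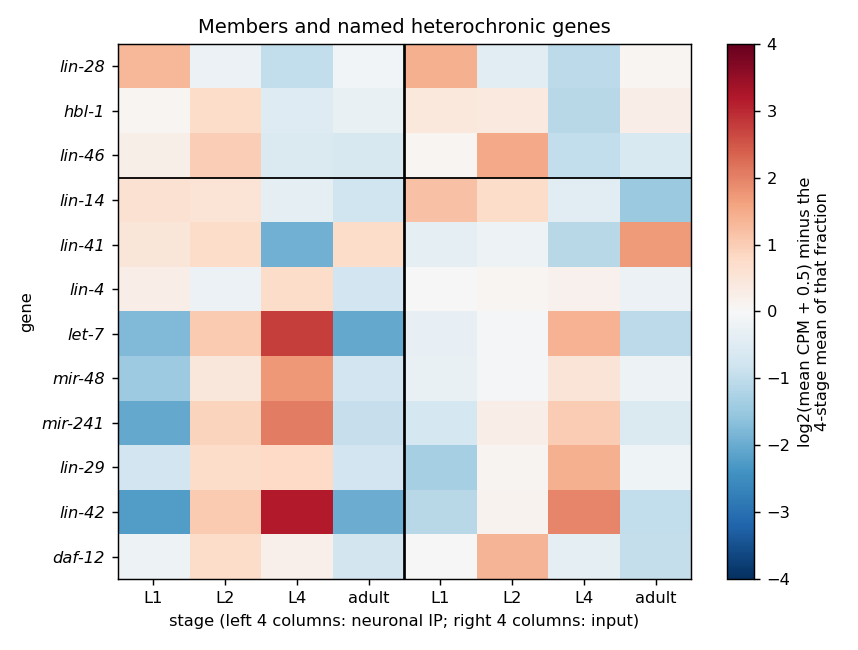
Stage profile of the 3 members and 9 named heterochronic genes, as log2 of mean CPM + 0.5 minus the mean of the 4 stages within a fraction; neuronal IP is on the left and input on the right. lin-28 is highest at L1, hbl-1 and lin-46 are highest at L2 in neuronal IP, and let-7, mir-48, mir-241 and lin-42 are highest at L4.

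The 3 members did not follow one another closely across the 22 neuronal IP libraries. Pearson's r of log2 CPM was 0.381 for lin-28 with hbl-1, 0.308 for lin-28 with lin-46 and 0.605 for hbl-1 with lin-46, which describes libraries that share stages and sets. The 5 genes most like lin-28 among 21039 were H20J04.4, gro-1, cfp-1, ZK792.5 and F56B3.4, with r between 0.906 and 0.928. In the 16 input libraries the r of these genes with lin-28 was 0.412, 0.084, 0.241, 0.685 and -0.056. These genes were picked by their r in neuronal IP, so a lower r in input follows from the choice in part. For hbl-1 they were ham-1, sor-3, sym-4, ZK673.5 and ZK673.11, with r between 0.863 and 0.890, and in input their r was 0.906, 0.342, 0.815, 0.587 and 0.681. For lin-46 they were tsp-16, C16D9.1, pgp-14, C30F2.3 and Y87G2A.16, with r between 0.904 and 0.940 in neuronal IP and between 0.739 and 0.920 in input.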

How the data were processed

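RNA-seq libraries of nuclei were analysed from the raw count table the authors deposited, whose values are whole-number counts per gene. Subread, featureCounts and DESeq2 are named in the submitters' processing notes; no source used here gives their versions, settings, strand use or genome build. The table also gives each gene's counted length in another column. The size-adjusted values the authors deposited are rescaled counts rounded to whole numbers, treated as a score; they were searched for the 3 genes and not otherwise used. Columns were matched to libraries by name, 0 columns were unmapped, 0 rows named no gene, and 0 pairs of libraries were identical.

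Counts were fitted in R 4.3.3 with edgeR 4.0.16 (quasi-likelihood, robust), TMM factors (0.651 to 1.33), filterByExpr (minimum count 10, total 15) and 1 mean per group over 8 groups, two-sided, with Benjamini-Hochberg adjustment over 21040 of 41897 genes. Stage steps, fraction contrasts and their differences came from this fit. The over-stage contrast weights the 4 stages equally. DESeq2 1.42.0, RLE scaling, no filter, other scaling genes, smaller fits, library sets and leave-one-out were alternatives. Same-numbered neuronal IP and input libraries deviated together from their group means (r 0.158 to 0.292 at L1, 0.143 to 0.304 at L2, 0.132 to 0.654 at L4, 0.495 to 0.766 in adults), so the replicate block pairs the fractions in their contrasts. In adults, 4 of 5 neuronal IP libraries were most like the input library of their own number. For stage steps the same setting blocked on replicate number within a fraction, although numbers did not pair stages (r -0.308 to 0.237). The test was checked on simulated data with known changes for L2 against L1 in neuronal IP. It called 16% and 12% of genes with a true log2 change of -1 and 1, and 70% and 86% at -2 and 2. Of unchanged genes it called 0.0293%. A miss at that step therefore does not show that a gene was unchanged. Likeness is Pearson's r of log2 CPM with a prior count of 2, and the 5 highest genes per member are named. The 3 members are named in every comparison, as are 10 genes of the heterochronic list. Members, lists and markers were chosen with earlier results of these data known. Collection hours come from the labels' protocols. No sequences are shown.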

Additional observations from a re-analysis of the deposited data

Results flagged for a closer look

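The level of lin-46 in adult neuronal IP replicate 6 was 2.34 CPM, while the other 6 libraries of that group lay between 0.581 and 1.30 CPM. Its distance from the nearest library, as a share of the whole range, exceeded Dixon's 95% critical value. Of 21 combinations of gene and group with 4 or more libraries, 1 was picked out in this way, and chance picks out about 1 in 20.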

How the results depend on the processing

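Values are log2 fold changes, called at an adjusted p under 0.05. Of 419 values under 11 settings, 348 kept their direction and their side of the threshold or were uncalled on both sides, 33 gained a call, 17 lost one and 21 changed sign with a call on at least 1 side; 52 further sign changes joined 2 uncalled values. The causes were not tested. Scaling on neuron-enriched genes with all genes tested was chosen after seeing the data.

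Neuronal IP against input moved most with scaling. With factors from neuron-enriched genes and all genes tested, values at L1, L2, L4, adult and over the stages were -1.60, -1.23, -1.41, -1.80 and -1.51 for lin-28, -1.84, -1.14, -0.95, -2.11 and -1.51 for hbl-1, and -2.16, -2.75, -1.77, -2.44 and -2.28 for lin-46. All were called, but these genes were selected on this contrast and 11348, 10624, 11006, 12798 and 13243 of 21040 genes were called lower too, so nothing is read from them. With those genes alone tested, lin-28 was at -1.60, -1.23, -1.40, -1.80 and -1.51. In the steps, lin-28 lost its calls at L4 against L2 in neuronal IP (-0.38 with either set of tested genes) and in input (-0.20 with either set) and at adult against L1 in input (-0.28 with either set), and lin-46 lost L4 against L2 in neuronal IP (-1.46). Under this scaling lin-46 at adult against L1 in neuronal IP was at 0.018 and lin-28 at -0.49.

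Over the 4 stages lin-28 was at 0.069 with RLE scaling and with DESeq2, -0.19 with no filter on low counts, -0.18 and -0.11 with the earlier and the later adult set alone, and -0.21 with L4 replicates 1 to 3 alone, none called. lin-46 over the stages was called at -0.78 with RLE and with DESeq2, -1.03 with no filter, -1.07 and -0.96 with the earlier and the later adult set, and -1.06 and -0.76 with the earlier and the later L4 set. lin-46 at L2 was called at -1.44 with RLE and with DESeq2, -1.74 with no filter and -1.42 with the compared groups alone, and in adults against L1 in neuronal IP at -1.30 with RLE and with DESeq2.

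With the compared groups alone, hbl-1 at L1 was called lower in neuronal IP (-0.45) and higher at L2 against L1 in neuronal IP (0.78), and lin-46 was called higher at L2 against L1 in input (1.73). hbl-1 lost its call for adult against L4 in input (1.25), and the adult against L1 step of lin-28 was called different between fractions (0.73). The median of all genes for that difference was 1.02, with 6866 of 19254 genes called higher. With the replicate block, which pairs the fractions, lin-28 at L2 was called at 0.61, lin-46 at L2 at -1.37, in adults at -1.01 and over the stages at -0.81, and hbl-1 over the stages at 0.35. The block called 12524, 10514 and 15003 of 21040 genes at L2, in adults and over the stages. No other call of the 3 genes changed with the block. For stage steps it joined libraries by a replicate number that did not pair stages, so their unchanged calls say little.

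With adult replicates 1 to 3 alone hbl-1 was called in adult neuronal IP against input (-1.01) and in the fraction difference of adult against L4 (-1.63). The medians of all genes for these were -0.63 and -0.47. Calls within a set leave out the spread between the sets. With replicates 4 to 7 alone hbl-1 was called in adult neuronal IP against input (1.04, with a median of all genes of 0.005), adult against L1 in neuronal IP (-0.83) and in input (-2.41), adult against L4 in input (-0.87) and the fraction difference of adult against L1 (1.58). With L4 replicates 1 to 3 alone lin-46 was called in adult against L4 input (1.55). With L4 replicates 4 to 6 alone the L4 against L2 calls were lost in neuronal IP (lin-28 -0.58, hbl-1 -0.86, lin-46 -1.23) and in input (lin-28 -1.08, hbl-1 -0.89, lin-46 -1.66), where 1 L4 library is left and the lin-28 value is larger than over all libraries, as was adult against L4 in input for hbl-1 (0.77).

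Leaving out 1 library at a time changed a call in 10 results. Over the stages neuronal IP against input ranged from -0.19 to 0.27 for lin-28 and from -1.17 to -0.36 for lin-46. In adults it ranged from -0.44 to 0.14 for lin-28, from -1.12 to 0.041 for hbl-1 and from -1.39 to -0.54 for lin-46; at L2 from -1.74 to -1.06 for lin-46; at L4 from 0.30 to 1.14 for hbl-1. The steps ranged from -1.001 to -0.51 for lin-28 at L4 against L2 in input, from 1.01 to 1.75 for hbl-1 at adult against L4 in input and from -1.34 to -0.83 for lin-46 at adult against L1 in neuronal IP.

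Counts of genes called moved too. Over the settings other than leave-one-out they lay between 107 and 1495 for L2 against L1 in neuronal IP (633 in the fit reported) and between 166 and 938 in input (265). They lay between 697 and 6736 for L4 against L2 in neuronal IP (5337) and between 2213 and 10520 in input (9336). For the differences between fractions they lay between 1 and 25 at L2 against L1 (1), 0 and 4679 at L4 against L2 (1068), 2 and 1044 at adult against L4 (236) and 2356 and 7083 at adult against L1 (3387). Scaling on neuron-enriched genes gave 3918 genes higher and 13243 lower in neuronal IP over the stages, against 8621 and 4915. In neuronal IP it gave 969 and 33 at L2 against L1 (514 and 119), 4574 and 704 at L4 against L2 (3435 and 1902) and 9214 and 2013 at adult against L1 (4984 and 6182). RLE scaling gave 3068 and 4312 at adult against L4 (3913 and 2974).

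Depth limits lin-46 most, with as few as 3 reads in a library. Other settings for mutant comparisons were not run, since those comparisons were not made.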
